A study of Dunaliella tertiolecta with 6 samples.

Results

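The annotation of the green alga Dunaliella tertiolecta leaves 10902 nuclear genes without a name. Of these, 150 met set criteria for more mRNA in cultures without added iron than in cultures with 1.5 µM added iron. They were chosen by their values in FPKM. These are read fragments divided by the length of the gene's model, which holds coding sequence only, and by the mapped fragments of the library. The criteria asked for a mean over all 6 libraries of at least 1 FPKM. They also asked for a mean log2(FPKM + 1) at least 1 higher without added iron, and no overlap between the groups. A separation of the groups in this direction was found for 19.6% of all 11273 genes with a mean of at least 1 FPKM. All criteria together left 1.89% of the 7930 unnamed nuclear genes with a mean of at least 1 FPKM, and 1.99% of the 11273. Of the 3286 named nuclear genes with such a mean, 68 (2.07%) met the same criteria. The mirrored criteria found 178 unnamed genes (2.24%) with less mRNA without added iron. Because the iron comparison chose the 150 genes, their own differences are described without a test.

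Dunaliella tertiolecta is a wall-less unicellular alga of salty waters, and the strain was UTEX LB 999, wild type. Both groups were vegetative cells in shaken liquid culture at 140 rpm and 24 °C, in constant light of 100 µE per square metre and second and with 2 M NaCl. They differed in the iron supplied, 0 or 1.5 µM, and each had 3 libraries from separate flasks. One label gives 2 d in the medium and the growth protocol gives 3 days. The labels do not say whether each flask had its own preculture.

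As background, iron is a part of the photosynthetic and respiratory electron carriers, and green algae short of it make more of the proteins that take iron up at the cell surface and replace some iron proteins with iron-free ones. Many genes with these roles are known from Chlamydomonas and land plants, and some from Dunaliella itself. A gene without a name was given no symbol in the annotation, so nothing is said here of what its product does. The levels, positions, gene structures and neighbours of such genes can be described all the same.

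The libraries went with their labels. Flavodoxin FLD1, an iron-free carrier that can take the place of ferredoxin, was at 9695 ± 875 FPKM (SD, n = 3) without added iron and at 12.6 ± 2.46 FPKM with it. TIDI1, a light-harvesting type protein of photosystem I known from iron-starved Dunaliella, was at 5620 ± 215 and 11.8 ± 4.61 FPKM. FPKM summed to between 808592 and 898151 per library without added iron and between 982304 and 1021467 with it, and the number of genes above 0 FPKM ranged from 12253 to 12509. The median log2 difference over all 11273 tested genes was -0.03. Read totals were not used here. A step at which 4.88% to 10.23% of the low values of a library gathered gave only a rough read count. If that step is a single read, the libraries without added iron hold about 16200000, 16600000 and 20200000 reads in replicates 1 to 3. Those with added iron would then hold about 16300000, 15200000 and 10200000.

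Most of the 150 differences were moderate and a few were very large. The median was 1.54 on the log2(FPKM + 1) scale (interquartile range 1.23 to 2.14), and 70 genes lay between 1 and 1.5. There were 46 genes at 2 or more, 19 at 3 or more, 8 at 4 or more and 2 above 8. Among the 68 named genes that met the same criteria the median was 1.64, with 13 genes at 4 or more. Libraries paired by replicate number gave medians of 1.46, 1.56 and 1.61 over the 150 genes, and 109 genes differed by at least 1 in every pair. The criteria used these same libraries, so a rise in every pair was fixed by the choice. What libraries of the same number share is not labelled.

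Dte_g14165, on the plus strand of scaffold_06 from 13264104 to 13275375 and with 3039 nt of coding sequence in 20 segments, had the largest difference. Its FPKM was 2921, 3204 and 3580 in replicates 1 to 3 without added iron and 2.66, 3.03 and 2.51 with it. All 3 libraries without added iron were thus high, and the other group was at a low level in each library. The means were 3235 ± 331 and 2.73 ± 0.27 FPKM, a log2 difference of 9.76. By FPKM it ranked 70 of 14354 genes without added iron and 10442 with it.

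Dte_g01071, on the plus strand of scaffold_03 from 13420326 to 13422105, has 618 nt of coding sequence in 5 segments. It was at 1609, 1419.9 and 1372 FPKM without added iron and at 2.81, 3.64 and 3.53 with it. The groups were far apart, with little spread inside either, and the log2 difference was 8.41. Its rank by FPKM was 115 without added iron and 10086 with it.

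The next 5 genes had very low levels with added iron. Dte_g02855 (scaffold_12, 4841673 to 4844299, minus strand, 630 nt) was at 178, 201 and 177 FPKM without added iron and at 0.863, 0.922 and 2.06 with it. Dte_g04194 (scaffold_16, 1942883 to 1945205, plus strand, 1218 nt) was at 89.3, 80.5 and 91.2 against 0.153, 0.108 and 0 FPKM. In both genes every library without added iron lay far above the other group. Dte_g08572 (scaffold_08, 10236975 to 10237979, minus strand, 225 nt) was at 135, 145 and 115 against 1.09, 2.62 and 0 FPKM. Dte_g07865 (scaffold_08, 535136 to 537347, minus strand, 318 nt) was at 128, 135 and 152 against 1.05, 1.12 and 2.51 FPKM. Dte_g04140 (scaffold_16, 1193108 to 1194318, minus strand, 297 nt) was at 235, 235 and 212 against 2.52, 9.42 and 1.00 FPKM. With added iron its replicate 2 stood above the other 2 libraries, but far below the group without added iron. The log2 differences of these 5 genes were 6.39, 6.34, 6.07, 5.81 and 5.77 in the order given.

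The last 3 of these, all with longer coding sequences, completed the 10 with the largest difference. Dte_g05693 (scaffold_01, 12521520 to 12532937, plus strand, 2124 nt in 16 segments) was at 29.7, 30.5 and 37.7 FPKM without added iron and at 0.415, 0.375 and 0.559 with it, a difference of 4.53. Dte_g11298 (scaffold_09, 2775317 to 2785413, plus strand, 1494 nt) was at 156, 154 and 171 against 10.6, 9.15 and 8.62 FPKM, a difference of 3.95. Dte_g01465 (scaffold_11, 774330 to 786896, plus strand, 1857 nt) was at 34.8, 41.6 and 44.9 against 1.82, 2.10 and 1.95 FPKM, a difference of 3.80. In each of them the groups were well separated and the 3 libraries of a group lay close together.

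**Figure D1:**
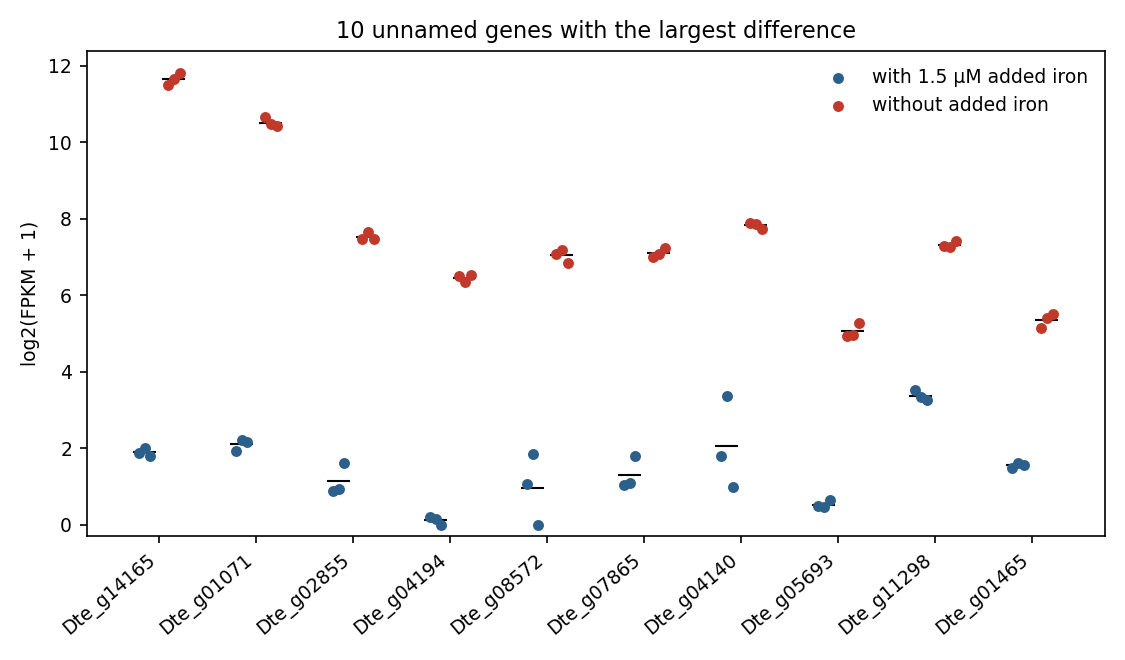
Expression of the 10 genes with the largest difference, as log2(FPKM + 1) on the y axis, with 1 point per library (3 per group) and a black bar at each group's mean. Red points (without added iron) lie above blue points (1.5 µM added iron) for every gene, with differences of the means from 3.80 for Dte_g01465 to 9.76 for Dte_g14165, and the widest spread with added iron is in Dte_g04140 and Dte_g08572.

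A large difference was not the same as a high level. Dte_g05263 (scaffold_01, 6913535 to 6917423, minus strand, 861 nt in 10 segments) was at 1434, 1657 and 1481 FPKM without added iron and at 545, 591 and 511 with it. It was thus abundant in both groups, and its log2 difference of 1.47 lay near the median of the 150. Dte_g13919 (scaffold_06, 9453668 to 9456027, minus strand, 489 nt) was also well expressed in both groups, at 372 ± 11.6 and 170 ± 6.17 FPKM (log2 difference 1.12). Dte_g07013 (scaffold_02, 9262650 to 9266680, plus strand, 642 nt) was at 357 ± 28.5 and 60.1 ± 5.56 FPKM, a difference of 2.55. Dte_g03168 (scaffold_10, 1374562 to 1375493, plus strand, 348 nt) was at 297 ± 20.4 and 34.8 ± 11.1 FPKM, a difference of 3.11. Among the 8 highest levels without added iron were also 2 very short genes, Dte_g10861 with 186 nt of coding sequence (544 ± 101 against 236 ± 29.8 FPKM) and Dte_g13100 with 198 nt (371 ± 66.6 against 133 ± 22.6 FPKM). For all these genes the lowest library without added iron lay above the highest with it, as the criteria required.

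Without added iron, 32 of the 150 genes had a mean of 1 to 10 FPKM, 93 of 10 to 100, 22 of 100 to 1000 and 3 of 1000 or more. With added iron, 25 were under 1 FPKM, 64 at 1 to 10, 56 at 10 to 100 and 5 at 100 to 1000. The median levels were 28.5 and 7.35 FPKM, and the other 7780 unnamed genes had medians of 8.87 and 9.32. The criteria set the direction of the difference for the 150 genes, in these medians and in the sums that follow. Together the 150 genes made up 1.63%, 1.67% and 1.83% of the FPKM sum of the libraries without added iron and 0.285%, 0.277% and 0.274% of the others. Dte_g14165, Dte_g05263 and Dte_g01071 alone gave 41.8% to 43.5% of the genes' sum without added iron and 19.2% to 21.1% with it. Libraries of one group were not level with each other: without added iron, replicate 1 was the lowest for 88 of the 150 genes and replicate 3 the highest for 65. This order was not particular to the 150. Over all genes above 0 in every library, median ratios to the geometric mean were 0.952, 0.998 and 1.01 for replicates 1 to 3. The same counts were not made for other genes.

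**Figure D2:**
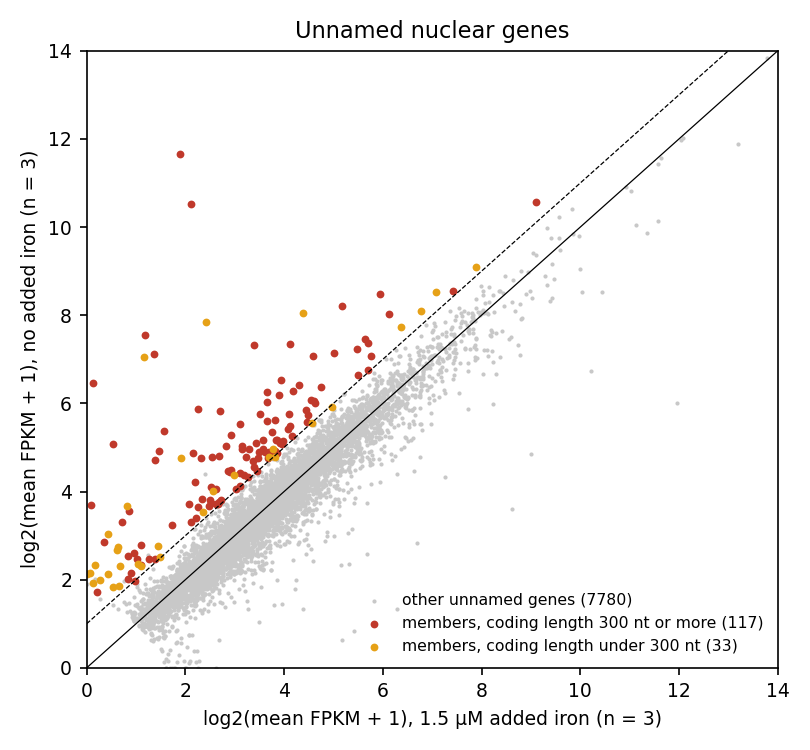
Mean level of each unnamed nuclear gene with a mean of at least 1 FPKM, as log2(mean FPKM + 1), with 1.5 µM added iron on the x axis and without added iron on the y axis (n = 3 libraries per mean). The solid line marks equal levels and the dashed line a difference of 1. The 150 chosen genes (red, and yellow for coding lengths under 300 nt) lie along and above the dashed line. Their levels with added iron reach 549 FPKM, with 5 genes at 100 to 1000 FPKM. The 2 points far up on the left are Dte_g14165 and Dte_g01071.

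Genes just inside the criteria differed little from those just outside. By size of difference, the last inside were Dte_g04153 (1.00), Dte_g12300 (1.01) and Dte_g14039 (1.01), and Dte_g04979, Dte_g09075 and Dte_g02461 (1.00, 0.99 and 0.98 after rounding) fell outside. By mean level the last inside were Dte_g01169, Dte_g10087 and Dte_g13548, at 1.23, 1.45 and 1.49 FPKM over all libraries. Dte_g07082, Dte_g12460 and Dte_g07601, at 0.994, 0.902 and 0.886 FPKM, fell outside. The narrowest separation inside was that of Dte_g07531, whose lowest library without added iron was 1.01 times its highest with it, followed by Dte_g02837 and Dte_g05107 (1.05 and 1.11 times). In Dte_g03230, Dte_g05457 and Dte_g06842 the groups overlapped (0.956, 0.755 and 0.689 times). In all, 6 unnamed genes met every criterion except the separation of the groups, and 9 every criterion except the mean level.

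By median, the chosen genes had shorter coding sequences than other unnamed genes, a difference that was not tested. Their median coding length was 856.5 nt (interquartile range 330 to 1756) in a median of 6 segments, against 1224 nt in 8 segments for the other 7780 unnamed genes. For the 178 unnamed genes that met the mirrored criteria the medians were 1018.5 nt and 7 segments, and for the 68 named genes 1110 nt and 9 segments. Coding lengths under 300 nt were found for 33 of the 150 genes (22%), 499 of the other unnamed genes (6.41%), 20 of the 178 mirrored genes (11.2%) and 1 of the 68 named genes (1.47%). By class, the share of unnamed genes that met the criteria was 6.20% under 300 nt and 1.16% to 2.08% in the 4 longer classes. The mirrored criteria took 3.76% of the class under 300 nt and 1.54% to 2.51% of the longer ones. The longest of the 150 was Dte_g06148 with 12009 nt in 64 segments, and the shortest Dte_g07188 with 156 nt in a single segment. The models hold coding sequence only, so transcript lengths are not known.

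**Figure D3:**
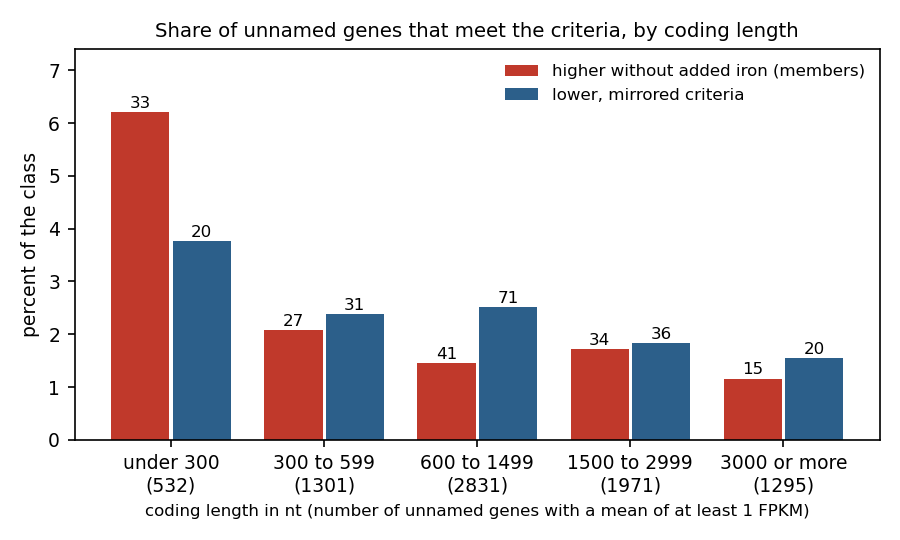
Share of unnamed nuclear genes in each class of coding length that met the criteria (red, higher without added iron) or the mirrored criteria (blue, lower), in percent of the class on the y axis, with the number of genes above each bar. The class under 300 nt stands out in both directions, at 6.20% and 3.76%, and the other classes lie between 1.16% and 2.51%.

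The values of the short genes were less certain. Over the chosen genes with coding lengths under 300 nt, the median relative SD between the 3 libraries without added iron was 28.5%, against 8.01% to 12% in the 4 longer classes. Over all unnamed genes of the same classes with a level above 0 without added iron, it was 21.1% under 300 nt and 8.62% to 13.2% in the longer ones. Among the 150 genes the relative SD without added iron exceeded 50% in 11, and all 11 had coding lengths under 300 nt. The widest, Dte_g04367 (213 nt), was at 1.76, 1.71 and 8.46 FPKM without added iron and at 0.575, 1.23 and 0 with it, so that replicate 3 alone was high. The narrowest, Dte_g08453 (1890 nt), was at 19.5, 19.7 and 19.9 against 8.90, 7.38 and 7.98 FPKM. With added iron, the relative SD exceeded 50% in some genes of 300 nt or more as well. Examples are Dte_g04194 (1218 nt, 90.4%), Dte_g02837 (312 nt, 89.7%) and Dte_g13681 (393 nt, 83.2%). Dte_g02837 was at 9.47, 5.82 and 0.249 FPKM with added iron. Of the 19 genes at 0 in at least 1 library with added iron, 17 were shorter than 300 nt. Zeros were counted for 17 genes in replicate 3 with added iron, the library with the fewest implied reads, against 7 in replicate 1 and 3 in replicate 2. Dte_g07188 alone was listed at 0 in all 3 libraries with added iron, and was at 1.76, 1.86 and 6.45 FPKM without it. Low values of each library gathered at a step, which held 4.88% to 10.23% of them, against 0.072% to 0.094% if spread evenly. In no-iron replicates 1 and 3 and in replicate 3 with added iron this gathering was sharper with a shortened coding length. The shortening was 205, 205 and 200 nt. In the other 3 libraries the gathering was sharpest with the full length. How far this difference between libraries set the values of the shortest genes was not tested. Without the 33 short genes the median difference was 1.54, as with them.

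The 150 genes were spread over 17 of the 18 scaffolds. They made up 0.442% to 2.97% of the unnamed tested genes of 16 scaffolds and 6 of 84 (7.14%) on scaffold_16, while scaffold_18 had none among 8. The 6 on scaffold_16 included Dte_g04194 and Dte_g04140.

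Some of the genes lay directly beside each other. In 12 places 2 or 3 of the 150 genes were next to one another with no gene model between them, which took in 26 genes (17.3%), whereas 142 of the other unnamed genes (1.83%) lay beside one of the 150. The unnamed genes that met the mirrored criteria lay next to one another in 16.3% of cases. Of the 14 adjacent pairs, 9 ran in tandem, 4 diverged and 1 converged, and 9 were less than 1000 bases apart. No sequences were compared and the models hold no untranslated regions, so whether reads of one gene were counted for its neighbour was not tested.

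Several of these pairs combined large differences. Dte_g08571 lies 42 bases from Dte_g08572 in the same direction on scaffold_08 and was at 57.4, 60.2 and 55.8 FPKM without added iron and at 4.54, 4.61 and 2.17 with it (log2 difference 3.67). Dte_g04193, 13717 bases upstream of Dte_g04194, was at 93.3, 82.1 and 97.2 against 19.0, 11.5 and 12.5 FPKM (2.61). In both pairs the groups of both genes were far apart. Dte_g14164 diverges from Dte_g14165 at a distance of 25379 bases and was at 24.0, 26.1 and 28.4 against 3.07, 5.15 and 3.70 FPKM (2.47). Its level without added iron was thus a small part of that of Dte_g14165. Other pairs with a highly expressed gene did not combine large differences. Dte_g13099 and Dte_g13100 differed by 1.71 and 1.47, at 4.81 and 371 FPKM on average without added iron. Dte_g04140 differed by 5.77 and Dte_g04141, 353 bases away, by 1.06, at 227 and 12.1 FPKM on average without added iron.

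Other pairs were closer in space than in size of difference. Dte_g14108 (scaffold_06, 12421435 to 12425455) was at 175, 162 and 151 FPKM without added iron and at 16.2, 17.3 and 15.6 with it (3.23). Dte_g14109 starts 89 bases away in the opposite direction and was at 25.4, 26.5 and 26.8 against 11, 12.1 and 12 FPKM (1.1). The first thus had the larger difference and the higher level of the pair. Dte_g09584 and Dte_g09585, 31 bases apart in tandem on scaffold_05, had nearly equal differences of 2.25 and 2.26, at 52.9 ± 9.32 against 10.4 ± 2.13 FPKM and 26.6 ± 1.96 against 4.77 ± 0.275 FPKM. In the row of 3 genes from Dte_g12602 to Dte_g12604 on scaffold_04 all levels were low, at 4.52 to 5.05 FPKM on average without added iron and 0.955 to 1.81 with it.

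A row of long genes on scaffold_01 stood out by structure. Dte_g06142, Dte_g06146 and Dte_g06148 lie between 18556392 and 18729309, all on the plus strand, with 9270, 8370 and 12009 nt of coding sequence in 48, 46 and 64 segments. Dte_g06142 was at 10.3, 10.6 and 14.8 FPKM without added iron and at 0.060, 0.062 and 0.051 with it (log2 difference 3.59). Dte_g06146 was at 47.0, 52.9 and 68.5 against 5.30, 6.28 and 5.05 FPKM (3.11), and Dte_g06148 at 21.6, 23.3 and 31.2 against 1.52, 1.87 and 1.44 FPKM (3.32). In all 3 genes replicate 3 was the highest without added iron and the groups lay far apart. Dte_g06148 shared a run of 27 consecutive segment lengths with each of the other two, and sequences were not compared. Reads of near-identical copies can be split by the authors' counting, so the share of each of the 3 is uncertain. Dte_g06146 and Dte_g06148 also shared shorter runs with unnamed genes elsewhere that were not chosen, among them Dte_g09843, at 201 FPKM without added iron and 292 with it.

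Runs of at least 4 shared segment lengths were found for 10 of the 100 chosen genes with 4 or more segments and for 413 of 6347 other unnamed genes (6.51%). Dte_g02811 (scaffold_12, 4475169 to 4495999, minus strand, 31 segments) was at 10.5, 11.3 and 12.9 FPKM without added iron and at 3.57, 3.6 and 4.07 with it (1.40). It shared runs of up to 19 segments with 17 other unnamed genes, 11 of them on the same scaffold, whose log2 differences ran from -0.80 to 0.02. Dte_g05253 (scaffold_01, 6755851 to 6767459, minus strand, 21 segments) was at 18, 21.2 and 22.7 against 5.66, 7.22 and 6.49 FPKM (1.54). Its next neighbour Dte_g05254, with which it shared a run of 20 segments, was at 14.6 and 25.6 FPKM, a difference of -0.77. The listed differences of this pair thus had opposite signs. No sequences were compared, and how the counting split reads between such genes was not tested. The same limit holds for Dte_g02811 and the 17 genes that share runs with it.

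The genes beside the 150 that were not themselves chosen were tested with limma on log2(FPKM + 1) over all genes, at a Benjamini-Hochberg adjusted p under 0.05. That test called 11.6% of all genes higher and 18.7% lower without added iron, or 10.4% and 18.9% of the 11123 tested genes outside the 150. Neighbours among the 150 were left out because the iron comparison chose them, which removed unnamed neighbours with large differences by the outcome itself. Of the 211 tested neighbours that remained, 37 (17.5%) rose and 32 (15.2%) fell without added iron, and 142 did not pass. Their median log2 difference was 0.02. With all libraries scaled to equal FPKM sums, which moved the median of all genes from -0.03 to 0.17, 71 rose and 15 fell. At least 2-fold changes were called for 7 that rose (3.32%) and 3 that fell (1.42%). Such calls took 1.9% and 3.13% of all genes, the 150 included, and 0.638% and 3.17% of the genes outside the 150. All 7 are named genes, and named genes could not be among the 150. Of the 69 named neighbours, 15 (21.7%) rose and 9 (13%) fell, against 13.4% and 23.6% of all 3286 named nuclear genes tested. At least 2-fold rises were called for 7 of the 69 (10.1%) and for 66 of the 3286 (2.01%). These shares were set side by side without a test.

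The neighbours were also split by their orientation, a split made after the values were seen. Of 67 tested neighbours that diverge from one of the genes, 22 (32.8%) rose and 5 (7.46%) fell. Of 71 in tandem, 9 (12.7%) rose and 15 (21.1%) fell, and of 73 that converge, 6 (8.22%) rose and 12 (16.4%) fell. Divergent neighbours of the other unnamed genes rose in 417 of 3926 cases (10.6%), and those of the 68 named genes in 11 of 40 (27.5%). Of the divergent neighbours of the 178 mirrored genes, 27 of 87 (31.0%) fell, and of those in tandem 31.5%. In each set, neighbours that were themselves in the set were left out (for the other unnamed genes, those among the 150), and no test of these differences was made. Divergent neighbours were near, with a median gap of 342 bases between coding sequences, against 6463 in tandem and 6847 when converging, so the 2 splits overlap. At gaps under 1000 bases 17 of 55 divergent, 3 of 7 tandem and 0 of 3 convergent neighbours rose. At longer gaps the counts were 5 of 12, 6 of 64 and 6 of 70. Most divergent pairs were close and most others distant, so several of these counts rest on few pairs. Without no-iron replicate 2 the call share over all genes fell to 7.05%, and 17 of 68 divergent neighbours (25%) rose. Without replicate 3 with added iron the values were 7.60% and 19 of 68 (27.9%). With equal sums 34 of 68 (50.0%) rose, against 28.3% of all genes.

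**Figure D4:**
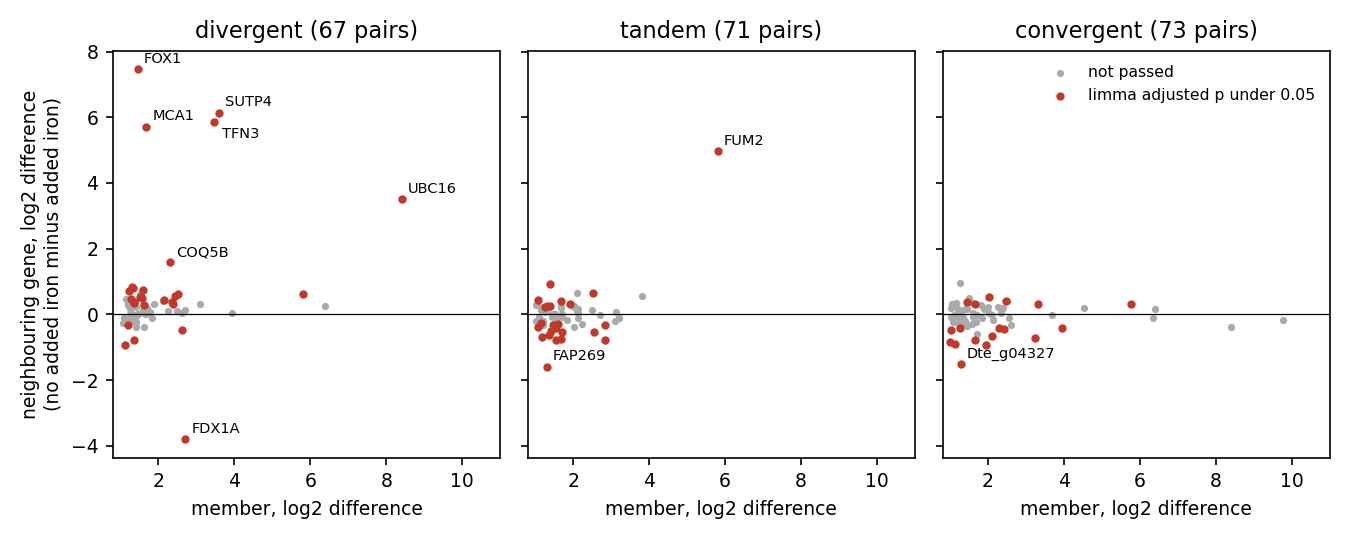
Log2 difference (without minus with added iron, on the log2(FPKM + 1) scale) of each tested neighbouring gene on the y axis against that of the chosen gene on the x axis, for divergent (67), tandem (71) and convergent (73) pairs. Red points passed limma at an adjusted p under 0.05 and grey points did not, and neighbours that passed with a change of at least 2-fold carry their names or identifiers. Of 7 named genes that rose by that much, 6 are in the divergent panel, and FUM2 in the tandem panel.

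Some of the chosen genes started close to named genes with a known part in iron uptake. FOX1 (Dte_g11478), the multicopper ferroxidase that oxidises iron for uptake in Chlamydomonas, was at 781, 827 and 934 FPKM without added iron and at 2.22, 7.54 and 3.03 with it. It rose by 7.46 on the log2 scale (limma, adjusted p = 5.254e-06). Dte_g11479 (scaffold_09, 5212356 to 5229480, plus strand, 1776 nt) starts 463 bases away on the opposite strand and was at 16.4, 15.2 and 15.7 against 5.53, 4.79 and 5.09 FPKM. Its groups did not overlap either, but its difference of 1.45 was far smaller than that of FOX1.

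TFN3 (Dte_g01463), named as a transferrin-like gene, a family that binds iron at the cell surface in Dunaliella salina, was at 73.4, 76.1 and 92.7 FPKM without added iron and at 0.345, 0.565 and 0.291 with it. It rose by 5.86 (limma, adjusted p = 1.732e-07). Dte_g01464 (scaffold_11, 763691 to 773659, plus strand, 1761 nt) starts 179 bases away and was at 27.1, 28.4 and 32.9 against 1.61, 1.85 and 1.82 FPKM, a difference of 3.46. Dte_g01465, one of the 10 largest differences, follows it in tandem after 670 bases. All 3 genes were thus high in every library without added iron and low in every library with it.

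SUTP4 (Dte_g06141) was at 586, 697 and 699 FPKM without added iron and at 4.77, 25.3 and 4.44 with it, so that replicate 2 with added iron stood above the other 2. It rose by 6.14 (SE 0.56, limma, adjusted p = 0.0001971) and starts 83 bases from Dte_g06142, the first of the row of long genes on scaffold_01. MCA1 (Dte_g09289) was at 295 ± 21.6 against 4.65 ± 0.503 FPKM and rose by 5.71 (limma, adjusted p = 5.82e-08). Dte_g09290, 370 bases away (scaffold_05, 7029130 to 7040815, plus strand, 2613 nt), was at 12.1, 12.2 and 12.4 against 3.66, 2.56 and 3.36 FPKM, a difference of 1.67. At SUTP4 and MCA1 the named gene had the higher level in both groups and the larger difference. FOX1 and TFN3 also had the larger difference, but their mean was the higher of the pair only without added iron.

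At UBC16 the order of the differences was the other way round. UBC16 (Dte_g01070), named as a ubiquitin-conjugating enzyme, was at 402, 475 and 442 FPKM without added iron and at 36.1, 37.6 and 38.8 with it, a rise of 3.51 (limma, adjusted p = 2.38e-07). Dte_g01071, 341 bases away and described above, differed by 8.41 and was the lower of the pair with added iron and the higher without it. COQ5B (Dte_g01392), named for a methyltransferase of ubiquinone synthesis, was at 26.7, 27.3 and 29.1 against 9.02, 8.14 and 8.53 FPKM and rose by 1.59 (limma, adjusted p = 9.64e-06). Dte_g01393 starts 337 bases away (scaffold_03, 17282642 to 17286948, plus strand, 1191 nt) and was at 66.5, 74.1 and 76.9 against 13.4, 14.3 and 14.1 FPKM, a difference of 2.30. In both of these pairs the unnamed gene had the larger difference.

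Among neighbours outside the 150, FUM2 (Dte_g07864) was the only one in tandem that rose at least 2-fold. It was at 53.6, 64.3 and 57.8 FPKM without added iron and at 0.669, 0.835 and 1.24 with it, a rise of 4.97 (limma, adjusted p = 4.985e-07). It lies 1359 bases downstream of Dte_g07865, whose levels were higher in both groups.

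The 3 neighbours that fell at least 2-fold lay farther off. FDX1A (Dte_g10111), named as a ferredoxin, an iron-sulfur carrier that flavodoxin can replace, was at 436, 455 and 394 FPKM without added iron and at 5604, 6508 and 5886 with it. It fell by 3.80 (limma, adjusted p = 1.927e-07), and the groups were far apart. Dte_g10110, whose coding sequence starts 4342 bases away on the opposite strand (scaffold_07, 619888 to 621184, minus strand, 717 nt), was at 10.2, 10.6 and 11.7 against 0.692, 1.13 and 0.626 FPKM. With a difference of 2.71 it went the opposite way. FAP269, named as a flagellar associated protein and 11020 bases from Dte_g00518 in the same direction, fell by 1.59 (limma, adjusted p = 0.0001176). The unnamed Dte_g04327, converging with Dte_g04326 at 7093 bases, fell by 1.52 (limma, adjusted p = 1.306e-05). In every library without added iron Dte_g00518 and Dte_g04326 were high, at 34.7 ± 4.37 against 13.5 ± 1.85 FPKM and 26.0 ± 3.53 against 10.1 ± 0.498 FPKM.

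**Figure D5:**
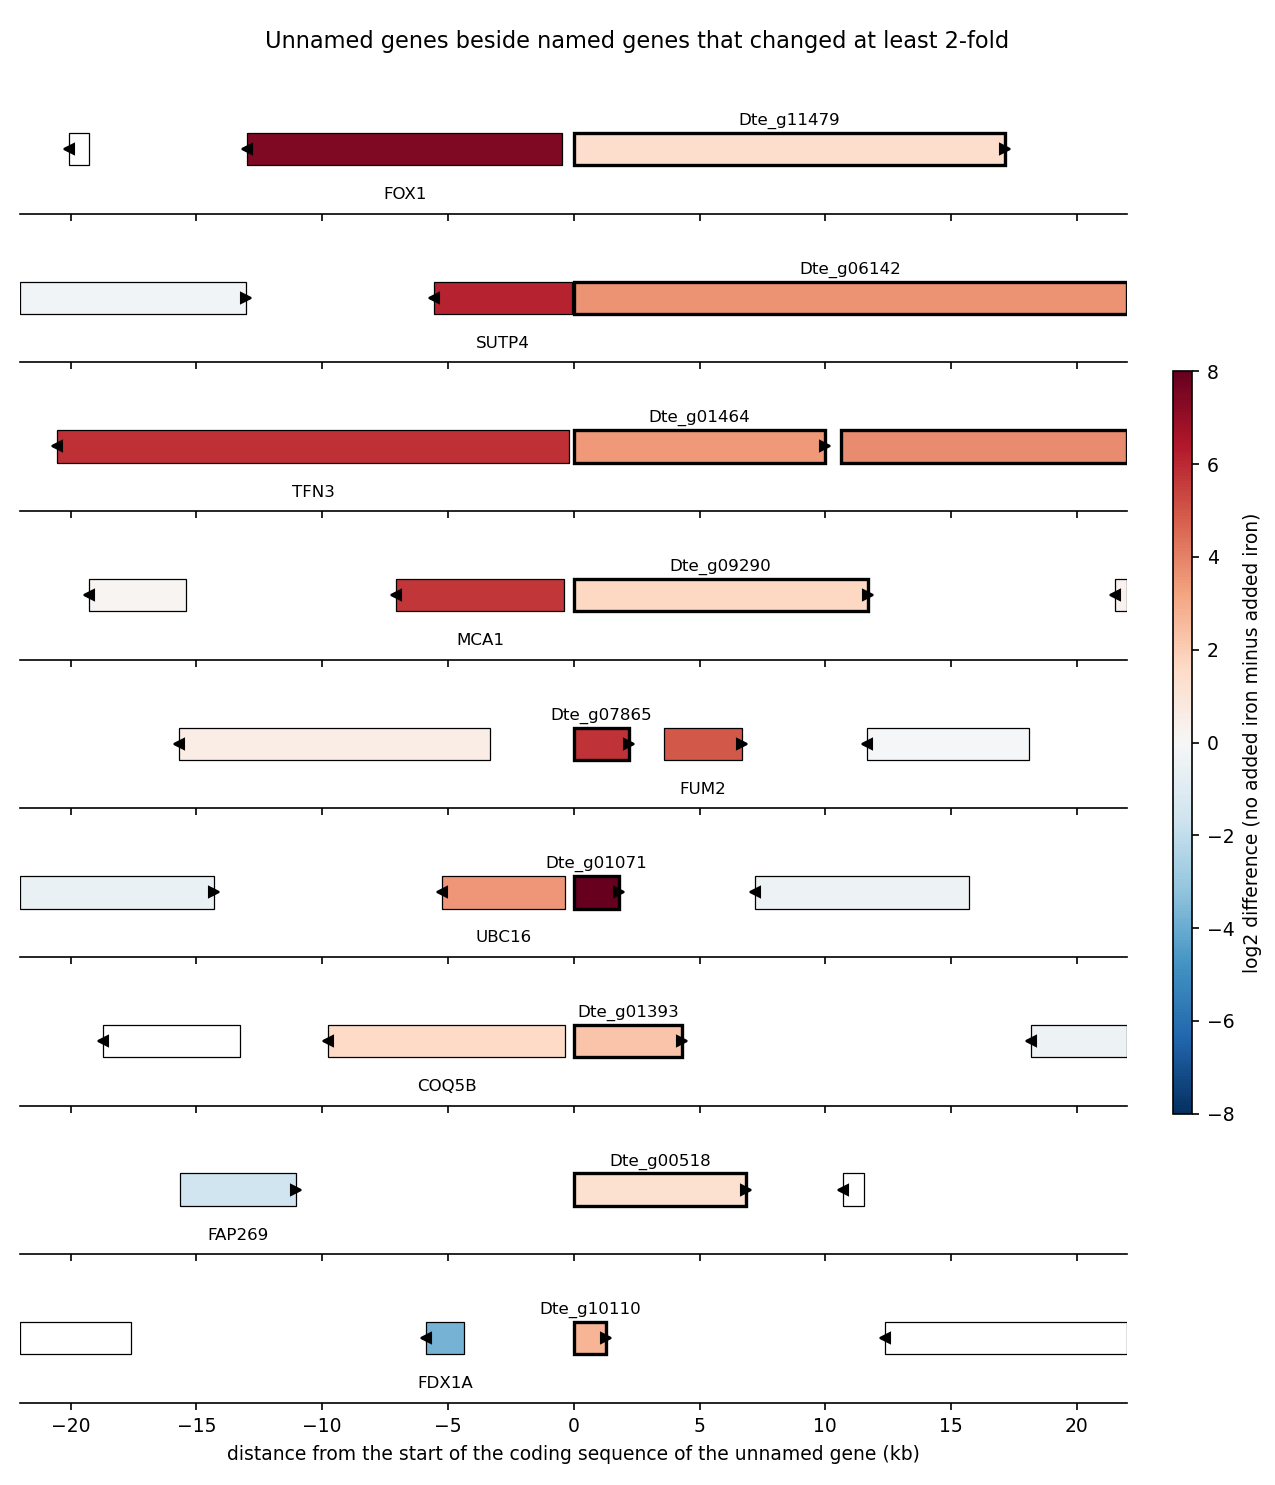
Maps of 9 chosen genes (thick outlines) beside a named gene that changed at least 2-fold, with distance in kb from the start of the chosen gene's coding sequence on the x axis and the chosen gene drawn left to right. Fill gives the log2 difference (red, higher without added iron; blue, lower; colours end at 8 and Dte_g01071 is at 8.41; white, mean under 1 FPKM and not tested), arrowheads the direction of the gene, and genes are clipped at the plot's edges. In 6 of the maps the named gene that rose points away from the chosen gene across a gap of 83 to 463 bases, and FAP269 and FDX1A, which fell, lie farther off.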

How the data were processed

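RNA was measured in 6 libraries, 3 labelled with 0 and 3 with 1.5 µM iron. The deposited values are FPKM per gene and library, made by the authors from 50 nt reads; STAR 2.4.0j and Cuffdiff 2.0.2 appear in the submitters' processing notes. Each column was matched to a sample (0 columns without one). Positions are 1-based on the authors' own assembly, from the deposited annotation, which also gave names. No source used here says whether counting used strand. Count models were not applied to FPKM, and intervals for counting error cannot be given. On the log2(FPKM + 1) scale the change of genes with low values is understated. The members and lists were chosen with earlier results of these data known.

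Genes with a mean of at least 1 FPKM were tested with limma 3.58.1 in R 4.3.3 (eBayes with trend, two-sided, Benjamini-Hochberg, threshold 0.05), after the script was tested on simulated data. Tables and figures used Python 3.11.15, pandas 2.3.3 and matplotlib 3.10.9. Neighbours are the next gene models on either side; gaps run between coding sequences. Named are the 10 largest differences, the 8 highest levels without added iron, genes at 0 in all libraries with added iron, the strongest adjacent genes, the extremes of relative SD and coding length, the 3 genes nearest each threshold, and neighbours that passed limma with at least 2-fold change; FLD1, TIDI1 and FOX1 check the labels. Genes sharing segment lengths and scaffold_16 genes were named after their values were seen.

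Replicate numbers come from the labels, which do not say what they share. Deviations from group means correlated across genes at 0.24, 0.26 and 0.17 between libraries of the same number and at -0.22 to -0.01 between different numbers, a hint that same-numbered libraries are paired. The tests reported have no replicate block. A fit with that block was among the alternatives, beside pseudocounts of 0.1 and 0.01 FPKM, filters of 0 and 5 FPKM, 3 scalings, other eBayes settings, 1 gene per set of identical values, replicates 1 and 2 only, and each library left out. A limit to coding lengths of at least 300 nt and the split of neighbours by orientation were chosen after seeing the data. P-values cover only the spread between flasks.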

Additional observations from a re-analysis of the deposited data

How the results depend on the processing

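The same criteria found 149 to 173 genes with any 1 library left out, 141 to 145 of them among the 150. With a log2 difference of at least 2 they found 46. The counts were 178 and 187 with pseudocounts of 0.1 and 0.01 FPKM, and 224 with equal sums. Scaling by median ratios and quantile normalization gave 167 and 165. Filters of 0 and 5 FPKM gave 159 and 121. The median difference of the 150 genes was 1.50 to 1.6 with a library left out, 1.76 and 1.77 with pseudocounts of 0.1 and 0.01 FPKM and 1.72 with equal sums. Neighbours that rose numbered 25 to 32 and those that fell 23 to 25 with a library left out, 71 and 15 with equal sums, and 16 and 16 with replicates 1 and 2 only. Divergent neighbours that rose numbered 17 to 20, 34 and 13 in the same order. Over all genes 1303 rose and 2105 fell, with 795 to 1288 and 1526 to 1910 when a library was left out. The count of rises was lowest without no-iron replicate 2 (795) and without replicate 3 with added iron (855). It was 3189 with equal sums, where 1086 fell, and 549 with replicates 1 and 2 only, where 1136 fell; the cause of the change with scaling was not tested, and the last fit has fewer samples. With the replicate as a block, 43 neighbours rose and 36 fell, 23 divergent ones rose, and 1611 genes rose and 2362 fell in all; it changed the call of none of the 10 neighbours with at least 2-fold change. The 10 neighbours that changed at least 2-fold (9 with names, and Dte_g04327) kept direction and call in the 18 alternatives run for each. Read totals were not used, so what depth limits was not measured; 17 of the 19 chosen genes at 0 in a library with added iron had coding lengths under 300 nt.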
